A study of Mus musculus with 30 samples.

Results

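The sirtuin family, Sirt1 to Sirt7, was followed by RNA-seq in mouse embryonic stem cells (ESCs) moved from a glucose-rich medium to EMM, a medium in which galactose replaces glucose and pyruvate. The members were the 7 genes with these symbols, found by the Ensembl identifier of each gene in both count tables. They were 7 of the 52630 genes in the table of the first day and 7 of the 55487 genes in the table of long-term culture, and all 7 passed the filter on low counts in both. Sirt1 RNA was higher in EMM than in Serum/LIF at every time and passage sampled, Sirt2 and Sirt7 rose within the first day, Sirt5 fell within that day, and Sirt4 was lower in EMM after long-term culture.

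Sirtuins are enzymes that use NAD+ to remove acetyl and other acyl groups from lysines, or, for some members, to transfer ADP-ribose, and they release nicotinamide, which inhibits them. Because they consume NAD+, they are known as a link between the redox state of a cell and its chromatin and enzymes. SIRT1, SIRT6 and SIRT7 are mainly nuclear, SIRT2 is mainly cytoplasmic, and SIRT3, SIRT4 and SIRT5 are mitochondrial. In ESCs, SIRT1 is best known for acting on histones, p53 and pluripotency factors.

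All cells were of 1 mouse ESC line, E14tg2a, so the libraries of a group do not sample different genotypes. In the time course, cells in Serum/LIF (fetal serum with the cytokine LIF) were labelled 0 h, although a protocol note also speaks of Serum/LIF kept for 24 h, and were compared with cells in EMM for 3, 9 and 24 h. In the passage experiment, cells were kept for 10 (P10) or 20 (P20) passages in Serum/LIF, in EMM, or in 2i/LIF, a naive-state medium with inhibitors of the kinases GSK3 and MEK. Each of the 10 groups had 3 libraries, which came from independent experiments per the study's methods, and LIF was present throughout.

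Library totals were 24074132 to 35301962 counts in the time course and 6944904 to 27912928 in the passages. In 4 groups 1 library stood apart from the other two by the chi-square per degree of freedom over genes. This was 52.2 and 44.8 for P20 2i/LIF replicate 1, which had the lowest total, against 13.4 between the others. It was 18.8 and 27.5 for P10 2i/LIF replicate 1 (6.1 between the others), 12.7 and 11.5 for EMM 24 h replicate 1 (2.71), and 9.66 and 10.6 for EMM 9 h replicate 3 (2.38). Without either of the last 2, no call of a sirtuin changed. The pluripotent cell markers were at 0 in none of the 10 groups, with a summed level over 10 genes of 182201 to 196720 normalized counts in the time course. In the passages this sum was higher in EMM than in Serum/LIF at P10 (107577 to 138196 against 82154 to 87365) and lower at P20 (79379 to 80923 against 90198 to 96341), with 88176 to 98999 and 97475 to 126933 in 2i/LIF. Markers of other cell types moved with the medium as well. Their sums over 7 trophectoderm markers were 8444 to 9822 in Serum/LIF and 553 to 767 in EMM at P10, and 4379 to 6130 against 754 to 782 at P20. Over 7 fibroblast markers the sums were 2274 to 2712 against 328 to 386 at P10 and 3651 to 7227 against 193 to 230 at P20. In P10 EMM, 1 of 7 genes was at 0 in each of these 2 lists (Elf5 and Lum), and of the tested fibroblast markers 4 were called lower and 1, Thy1, higher (1.14 on the log2 scale). In the first day the trophectoderm sum went the other way, from 4410 to 4812 in Serum/LIF to 7964 to 8325 after 24 h of EMM (4 markers called higher, and Cdx2 lower at −1.05), and the fibroblast sum went from 1919 to 2017 down to 1346 to 1583. The sum of 7 primitive endoderm markers was 414 to 448 in Serum/LIF and 748 to 766 after 24 h of EMM, but in the passages it was lower in EMM at P10 (109 to 126 against 179 to 232) and overlapped at P20 (229 to 347 against 229 to 315). At P10 its genes did not move together: Sox7 was called higher (2.73), Dab2 lower (−2.37), and the list median was −0.03. In 2i/LIF the trophectoderm sum was 872 to 1168 at P10 and 1898 to 1943 at P20, and the fibroblast sum 87 to 115 and 120 to 124. The part of these markers in the sirtuin values was not tested.

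The stretch before the start of 3 members is shown because these had the largest differences between media: Sirt1 was high in EMM, Sirt4 was low in EMM, and Sirt5 was low in 2i/LIF. Each is the 250 bases before the RefSeq transcription start on build GRCm38.p6, read 5′ to 3′ on the gene's own strand. Capitals mark CACGTG, an E-box, the core motif recognised by MYC, USF and MLX factors, searched on both strands (the motif reads the same on both).
Sirt1: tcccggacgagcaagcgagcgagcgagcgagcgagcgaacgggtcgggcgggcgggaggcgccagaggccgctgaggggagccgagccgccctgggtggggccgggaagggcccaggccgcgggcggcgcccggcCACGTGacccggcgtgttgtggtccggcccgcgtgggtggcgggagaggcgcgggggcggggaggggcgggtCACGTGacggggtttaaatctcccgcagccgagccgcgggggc
Sirt4: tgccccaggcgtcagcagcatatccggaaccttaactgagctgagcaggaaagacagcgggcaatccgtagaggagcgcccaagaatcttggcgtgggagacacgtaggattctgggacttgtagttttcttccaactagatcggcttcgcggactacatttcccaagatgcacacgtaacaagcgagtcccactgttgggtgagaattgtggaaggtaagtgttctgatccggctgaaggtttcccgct
Sirt5: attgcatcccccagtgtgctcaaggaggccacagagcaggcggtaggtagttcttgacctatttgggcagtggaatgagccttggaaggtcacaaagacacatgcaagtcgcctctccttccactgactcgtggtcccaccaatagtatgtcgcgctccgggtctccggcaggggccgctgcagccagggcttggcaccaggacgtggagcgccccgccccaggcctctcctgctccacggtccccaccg

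The Sirt1 stretch lies at chr10:63339036-63339285 on the minus strand, the Sirt4 stretch at chr5:115484298-115484547 on the minus strand, and the Sirt5 stretch at chr13:43365285-43365534 on the plus strand. Sirt1 held 2 E-boxes, whose first bases lie 115 and 43 bases before its start. Among 32851 RefSeq promoter stretches of this length, 6.02% held the motif at least once and 0.429% at least 2 times. None of the other 8 stretches of the family held it (Sirt3 and Sirt6 have 2 annotated starts each). The Sirt1 stretch was 79.2% G or C, above 98.4% of all stretches, while those of Sirt4 and Sirt5 were 53.2% and 62.8%. It held 6 copies of the GC box GGGCGG (both strands), which 32.7% of stretches held at least once, and none of the ETS core CCGGAA, the forkhead motif GTAAACA or the cyclic AMP element TGACGTCA, of which the last 2 were held by 3.17% and 1.55% of stretches. Sirt4 held 1 ETS core, and Sirt5 held 1 GC box. A matching string describes the sequence and does not show that a factor binds there.

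Per kilobase of exon, Sirt1 was the most abundant sirtuin transcript in all 10 groups. Its level in Serum/LIF of the time course was 32.7 ± 0.896 RPKM (reads per kilobase of exon, scaled to library size; SD, n = 3), 2.79 times that of Sirt6, the next in order. Sirt6, which acts on chromatin and DNA repair, stood at 11.7 ± 0.234 and Sirt2, the tubulin and cytoplasmic deacetylase, at 5.76 ± 0.221. Sirt7, which acts in the nucleolus, and Sirt4, a mitochondrial member with weak deacetylase activity, followed at 3.34 ± 0.231 and 3.29 ± 0.22, and the ranges of these 2 overlapped. The mitochondrial deacetylase Sirt3 and the desuccinylase Sirt5 came last, at 1.59 ± 0.167 and 1.2 ± 0.0505. The ranges of all other neighbours in this order were apart. With the length of the longest transcript in place of all exons, Sirt5 stood above Sirt3 in this group, and Sirt2 above Sirt6 at 9 and 24 h of EMM.

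The order held at its ends and changed in its middle. Sirt6 was second and Sirt5 last in every group on exon length, but with the longest transcript Sirt4, not Sirt5, was last in P10 EMM. After long-term culture the 3 ranges of Sirt7, Sirt3 and Sirt4 ran into each other in P10 Serum/LIF, at 2.14 ± 0.175, 1.83 ± 0.237 and 1.83 ± 0.218 RPKM. In P10 EMM, Sirt4 fell behind Sirt3, at 1.15 ± 0.247 against 1.98 ± 0.156, and in P10 2i/LIF it stood ahead of it, at 4.11 ± 0.531 against 2.36 ± 0.0758. Of the summed level of the 7 genes, Sirt1 made up 53.4% to 55.8% in the Serum/LIF libraries of the time course, 64.4% to 65.6% at 24 h of EMM, 73.9% to 78.5% in P10 EMM and 65.2% to 67.1% in P20 EMM. In 2i/LIF its share was 41.9% to 45.0% at P10 and 47.6% to 52.0% at P20.

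**Figure D1:**
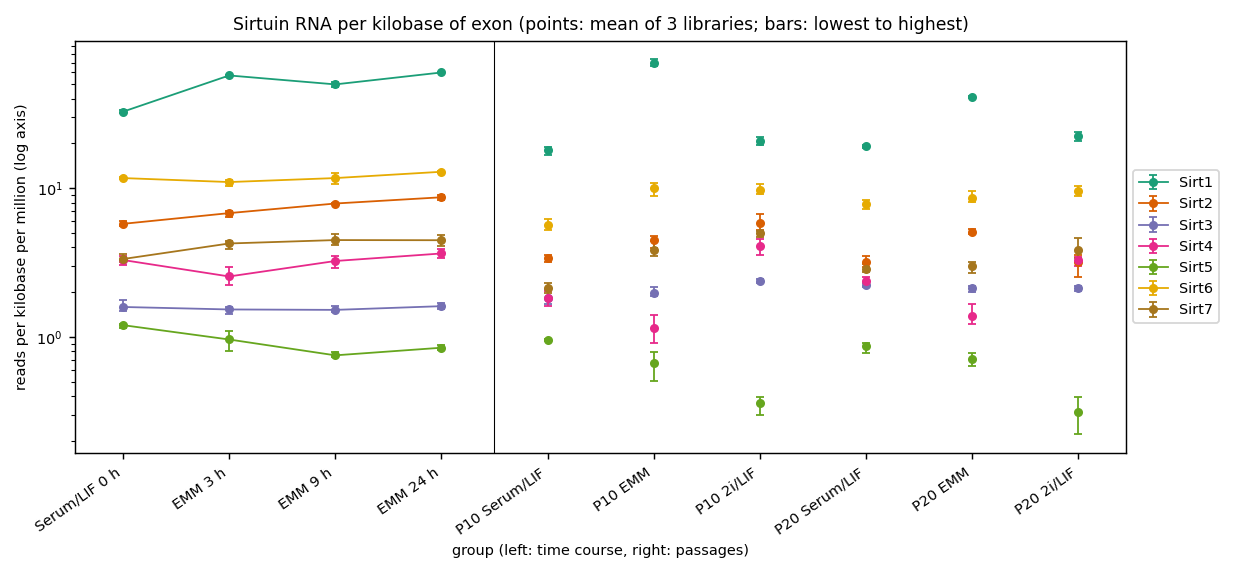
Level of each sirtuin transcript in RPKM (y, log axis) in the 10 groups (x), with points for the mean of 3 libraries and bars from the lowest to the highest, and lines that join the times of the first day. Sirt1 lies above the other members in every group, at 69.6 in P10 EMM against 18.1 in P10 Serum/LIF, Sirt5 is last in every group, and Sirt4 lies below Sirt3 in P10 EMM and above it in P10 2i/LIF.

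The time course compared RNA levels after 3, 9 and 24 h of EMM with those in Serum/LIF. No Serum/LIF libraries were labelled 3 or 9 h. At these times EMM and the time since the medium change cannot be told apart. Of the 7 sirtuins, 3 rose and 0 fell at 3 h (adjusted p below 0.01, edgeR), where 34.5% of all genes tested were called. Scaled by library totals alone, 1 rose (Sirt1) and 2 fell (Sirt4 and Sirt5) at 3 h. At 9 h 3 rose and 1 fell against a background of 38.2%, and at 24 h 3 rose and 1 fell against 44.0%. No sirtuin passed a fold change above 2 as well as the test in this first day. These 3 comparisons share the Serum/LIF libraries, and in bulk RNA fewer cells of a type and less RNA per cell cannot be told apart.

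Sirt1, whose product deacetylates histones, p53 and SOX2, had 5009, 5291 and 5148 normalized counts in the Serum/LIF libraries. It had 9079, 8846 and 9134 at 3 h, 8115, 7945 and 7508 at 9 h, and 9476, 9548 and 9349 at 24 h. Every EMM library was above every Serum/LIF library, and the 9 h libraries lay below both the 3 h and the 24 h ones. The log2 fold change against Serum/LIF was 0.81 ± 0.04 (SE) at 3 h (adjusted p = 4.1e-10), 0.61 ± 0.04 at 9 h (6.84e-09) and 0.88 ± 0.04 at 24 h (8.22e-11). The dip and the return were each called. From 3 to 9 h Sirt1 fell by 0.20 on the log2 scale (adjusted p = 0.000541), in a comparison where 2 of the 7 sirtuins and 26.5% of all genes were called, and from 9 to 24 h it rose by 0.27 (adjusted p = 0.00012), where 1 of the 7 and 13.0% of all genes were called.

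Sirt7 was the other nuclear member that rose. Its libraries held 549, 487 and 489 normalized counts in Serum/LIF, 676, 664 and 598 at 3 h, 745, 628 and 672 at 9 h, and 742, 617 and 682 at 24 h. All EMM libraries were above all Serum/LIF libraries, and the 3 EMM times overlapped each other. Its log2 fold changes were 0.35 ± 0.08, 0.43 ± 0.08 and 0.42 ± 0.08 (adjusted p = 0.00315, 0.000573 and 0.000508). The call at 3 h was lost without Serum/LIF replicate 2 or 3 or without EMM 3 h replicate 1 or 2 (adjusted p = 0.0129 to 0.0164), and with scaling by library totals alone (0.0137). Sirt6 did not pass the test at any time: its group means were 966 ± 19.3 normalized counts (SD, n = 3) in Serum/LIF, 903 ± 37.1 at 3 h, 964 ± 80.2 at 9 h and 1061 ± 21.7 at 24 h, and the 95% interval of its log2 fold change at 24 h was 0.02 to 0.25.

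The cytoplasmic member Sirt2 climbed in steps. It held 859, 889 and 824 normalized counts in Serum/LIF, 1038, 1038 and 958 at 3 h, 1168, 1188 and 1167 at 9 h, and 1235, 1346 and 1298 at 24 h. Each time lay wholly above the one before it. Against Serum/LIF its log2 fold change was 0.24 ± 0.05 at 3 h (adjusted p = 0.0014, and 0.0127 with library totals alone), 0.45 ± 0.05 at 9 h (3.3e-06) and 0.59 ± 0.05 at 24 h (1.45e-07). The step from 3 to 9 h was called, at 0.22 ± 0.05 (adjusted p = 0.003, and 0.0222 or 0.0125 without EMM 3 h replicate 3 or EMM 9 h replicate 2), and the step from 9 to 24 h, at 0.14 ± 0.05, was not (adjusted p = 0.0547). Sirt2 shares bases with Nfkbib on the opposite strand, and Nfkbib differed by 0.05 on the log2 scale at 24 h (adjusted p = 0.656).

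Of the mitochondrial members, Sirt5 was the one called lower. Its libraries held 222, 205 and 220 normalized counts in Serum/LIF, 179, 144 and 196 at 3 h, 133, 142 and 132 at 9 h, and 146, 152 and 159 at 24 h. No EMM library reached the lowest Serum/LIF library. The log2 fold change was −0.31 ± 0.10 at 3 h (adjusted p = 0.0195, which passed with library totals alone, at 0.00565, and without EMM 3 h replicate 3, at 0.00605), −0.67 ± 0.11 at 9 h (8.56e-05) and −0.50 ± 0.10 at 24 h (0.000805).

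Sirt4 had its low point at 3 h. Its libraries held 248, 233 and 217 normalized counts in Serum/LIF, 209, 175 and 158 at 3 h, 234, 206 and 249 at 9 h, and 239, 258 and 276 at 24 h. The 3 h libraries lay below the Serum/LIF ones, with a log2 fold change of −0.37 ± 0.11 that missed the threshold (adjusted p = 0.0115) and passed it without EMM 3 h replicate 1 (0.00284), with library totals alone (0.00431) or with no filter (0.00551), and the later times overlapped Serum/LIF. Sirt3 ranged from 253 to 315 normalized counts over all 12 libraries, its groups overlapped, and its log2 fold change at 24 h was 0.02 with a 95% interval of −0.15 to 0.19.

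**Figure D2:**
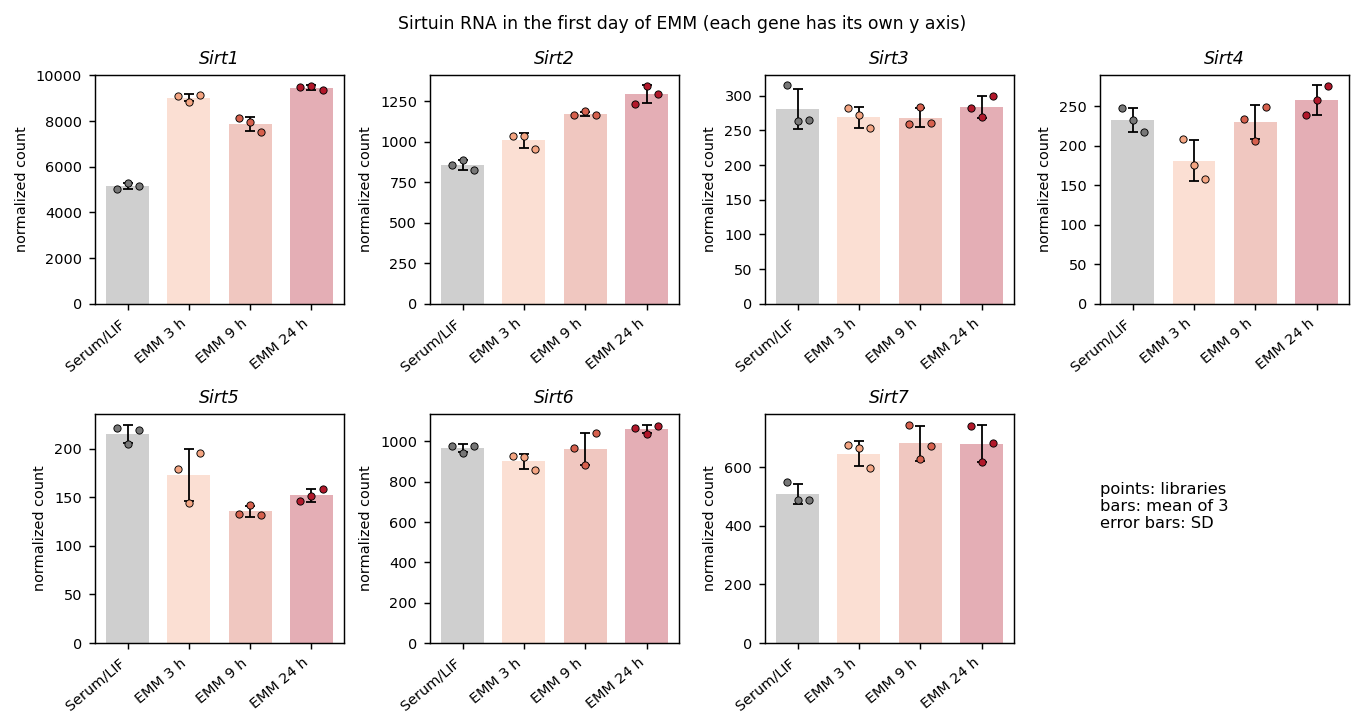
Normalized counts (y, from 0, a separate axis for each gene) of the 7 sirtuins in Serum/LIF and after 3, 9 and 24 h of EMM (x), with points for libraries, bars for the mean of 3 and error bars for the SD. Sirt1 goes from 5149 to 9020 within 3 h, Sirt2 climbs from 857 to 1293 over the day, Sirt5 drops from 216 to 135 at 9 h, and Sirt3 stays between 268 and 284.

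The passage experiment asked what stays different once cells live in EMM. Against Serum/LIF, 3 of the 7 sirtuins were called higher and 1 lower at P10, where 37.4% of all genes were called, and 2 higher and 1 lower at P20, where 26.0% were. Sirt1 alone passed a fold change above 2 as well, at both passages. At each passage the comparisons with Serum/LIF and with 2i/LIF share the EMM libraries.

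For Sirt1, the P10 libraries held 5724, 6102 and 5548 normalized counts in EMM, 1540, 1397 and 1581 in Serum/LIF and 1833, 1634 and 1696 in 2i/LIF. At P20 they held 3444, 3399 and 3348 in EMM, 1632, 1559 and 1564 in Serum/LIF and 1981, 1718 and 1946 in 2i/LIF. The EMM libraries were far above those of both other media at both passages, and lower at P20 than at P10. The log2 fold change of EMM against Serum/LIF was 1.94 ± 0.07 (SE) at P10 (adjusted p = 9.15e-13), the 466th highest of 16054 genes, and 1.10 ± 0.07 at P20 (2.74e-09). Counts of the time course and of the passages were made and scaled separately, so the 0.88 at 24 h can be set beside these values but was not tested against them.

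Sirt6 and Sirt7 were called higher in EMM than in Serum/LIF at P10 but not at P20. Sirt6 held 469, 383 and 447 normalized counts in P10 EMM and 269, 236 and 228 in P10 Serum/LIF, a log2 fold change of 0.83 ± 0.11 (adjusted p = 7.09e-06). At P20 it held 414, 359 and 353 against 364, 349 and 314, which overlap, with a log2 fold change of 0.13 ± 0.11. Sirt7 held 280, 291 and 353 against 172, 187 and 158 at P10 (0.82 ± 0.13, adjusted p = 3.52e-05) and 257, 218 and 246 against 247, 219 and 220 at P20 (0.07 ± 0.12, with a 95% interval of −0.17 to 0.31).

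Sirt2 passed the test at P20. It held 415, 387 and 400 normalized counts in EMM against 232, 276 and 249 in Serum/LIF, with no overlap and a log2 fold change of 0.66 ± 0.12 (adjusted p = 0.000328). At P10 its libraries held 371, 313 and 376 against 278, 279 and 249, also apart, and 0.40 ± 0.13 missed the threshold (adjusted p = 0.0142).

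Sirt4 was the member called lower in long-term EMM. Its normalized counts were 41.8, 34.3 and 52.7 in EMM against 69.4, 76.4 and 60.2 in Serum/LIF at P10, and 45.6, 46.4 and 62.4 against 89.3, 82.9 and 93.9 at P20. The groups were apart at both passages, on raw counts as low as 22 in a library. Its log2 fold change was −0.70 ± 0.19 at P10 (adjusted p = 0.00567) and −0.78 ± 0.17 at P20 (0.00174). The P10 call was lost without P10 EMM replicate 1 or 2 or P10 Serum/LIF replicate 1 or 2 (adjusted p = 0.0175 to 0.0354), with no filter (0.0128) and with only the groups compared in the fit (0.0229), and the P20 call without P20 EMM replicate 1 or 2 (0.0117 and 0.0136). Sirt5, at 63.2 ± 13.7 against 90.6 ± 1.78 normalized counts at P10 and 67.3 ± 6.7 against 82.2 ± 6.92 at P20 (SD, n = 3), was not called (adjusted p = 0.0475 and 0.27), although no EMM library reached a Serum/LIF one. Sirt3 overlapped between EMM and Serum/LIF at both passages, with log2 fold changes of 0.11 ± 0.11 and −0.07 ± 0.11.

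**Figure D3:**
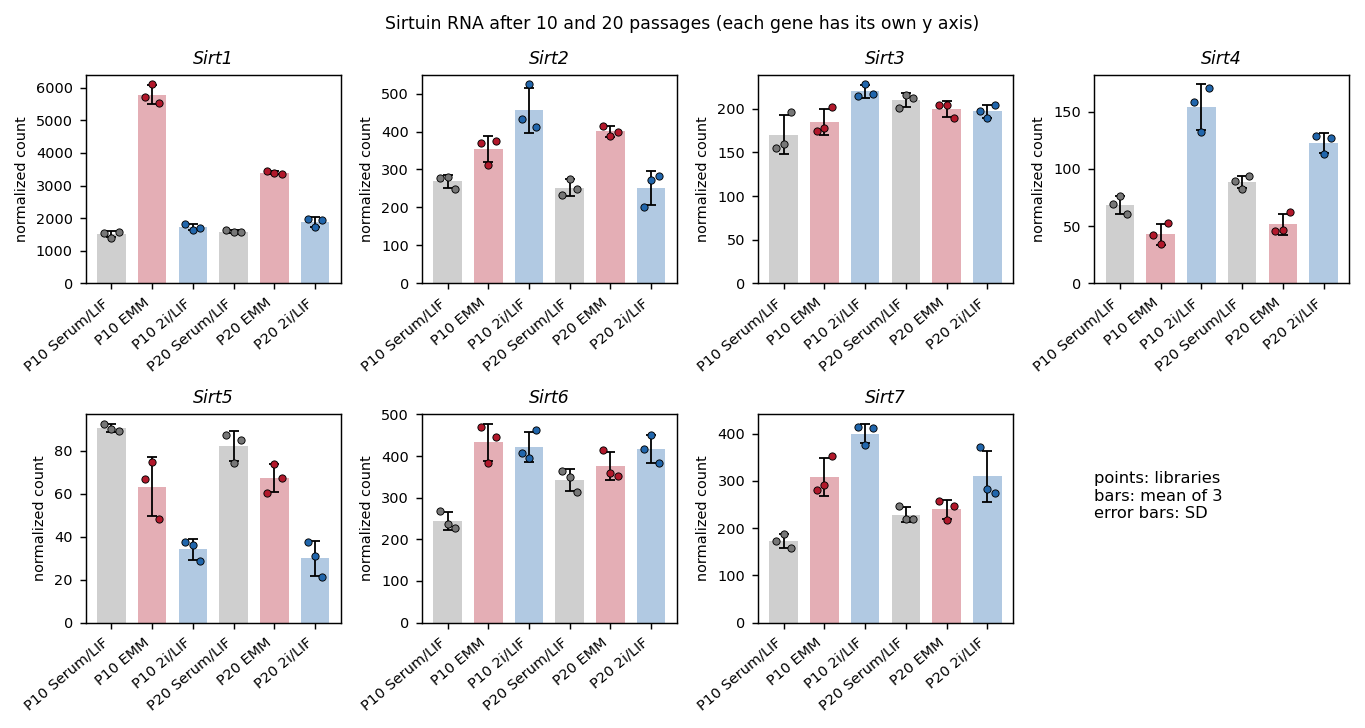
Normalized counts (y, from 0, a separate axis for each gene) of the 7 sirtuins in Serum/LIF (grey), EMM (red) and 2i/LIF (blue) at P10 and P20 (x), with points for libraries, bars for the mean of 3 and error bars for the SD. Sirt1 is high in EMM (5791 at P10, 3397 at P20), Sirt4 is high in 2i/LIF and low in EMM (154 and 42.9 at P10), and Sirt5 is low in 2i/LIF (34.2 and 29.9).

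Against 2i/LIF, EMM cells had more Sirt1 and Sirt5 and less Sirt4 at both passages. At P10, 2 of the 7 members were called higher and 1 lower, with a background of 45.1% (2 and 2 with library totals alone or DESeq2, Sirt7 being called lower as well), and at P20 3 were higher and 1 lower, with a background of 48.6%. Sirt1 differed by 1.75 ± 0.07 at P10 (adjusted p = 1.09e-12) and 0.85 ± 0.07 at P20 (7.78e-09) on the log2 scale. Sirt2 was called higher at P20 alone, at 0.65 ± 0.12 (adjusted p = 0.000188), and was at −0.36 ± 0.12 at P10 (0.0181, not called). Sirt4 held 159, 132 and 171 normalized counts in P10 2i/LIF and 129, 113 and 127 in P20 2i/LIF, above every library of the other media at the same passage. Its log2 fold change of EMM against 2i/LIF was −1.87 ± 0.19 (adjusted p = 1.42e-07) at P10 and −1.25 ± 0.17 (6.2e-06) at P20. Sirt5 held 37.7, 36.3 and 28.5 normalized counts in P10 2i/LIF and 37.6, 31.0 and 21.1 in P20 2i/LIF, below every library of the other media. It differed by 0.93 ± 0.22 at P10 (adjusted p = 0.00154, 0.0124 without P10 2i/LIF replicate 3, and 0.0172 with only the groups compared) and 1.22 ± 0.21 at P20 (8.41e-05).

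In 2i/LIF against Serum/LIF, 5 members were called higher and 1 lower at P10 (background 52.0%), and 2 higher and 1 lower at P20 (background 44.2%), or 0 and 1 at P20 with library totals alone or DESeq2-type size factors. Sirt5 was lower in 2i/LIF at both passages, by −1.43 ± 0.21 (adjusted p = 1.28e-05) and −1.50 ± 0.22 (1.13e-05) on the log2 scale. Sirt7 was higher by 1.21 ± 0.13 at P10 (adjusted p = 1.62e-07), with 413, 376 and 411 normalized counts in 2i/LIF, and Sirt4 by 1.17 ± 0.17 (1.2e-05). Sirt6 was higher by 0.79 ± 0.11 (6.35e-06) and Sirt2 by 0.76 ± 0.12 (3.53e-05). Sirt3, with 215, 228 and 217 against 155, 160 and 196 normalized counts at P10, was called at 0.37 ± 0.11 (adjusted p = 0.00637), a call lost with 5 of the 6 libraries left out in turn (all but P10 Serum/LIF replicate 3, adjusted p = 0.0108 to 0.0331) and with DESeq2, both other scalings, both other filters or only the groups compared (0.0127 to 0.17). The P20 calls of Sirt1 (0.25 ± 0.07, adjusted p = 0.0069) and Sirt7 (0.42 ± 0.12, 0.00869) were also lost with libraries left out, Sirt1 without any library but P20 2i/LIF replicate 2 (0.0125 to 0.0288) and Sirt7 without P20 2i/LIF replicate 1 or any P20 Serum/LIF library (0.0106 to 0.0487). With DESeq2-type size factors, library totals, either other filter or only the groups compared, neither of these P20 calls passed, and with DESeq2's own test Sirt7 did not (adjusted p = 0.0102).

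**Figure D4:**
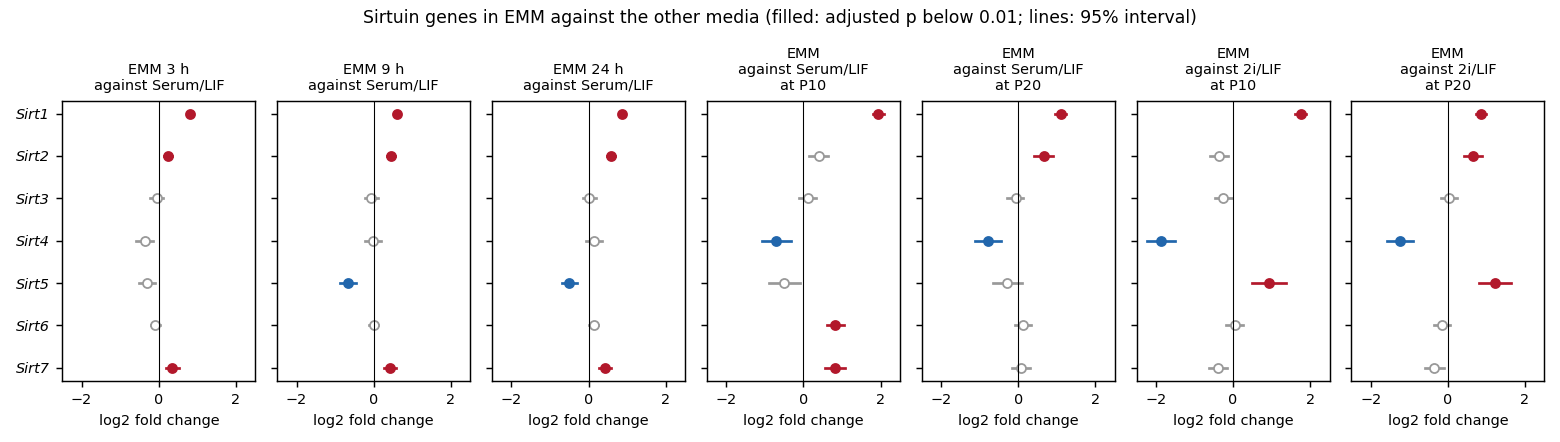
Log2 fold change (x) of each sirtuin (y) in 7 comparisons of EMM with another medium, with lines for the 95% interval, filled points for adjusted p below 0.01, red for higher and blue for lower. Sirt1 is filled and to the right in all 7 panels, from 0.61 at 9 h to 1.94 at P10, Sirt4 moves left in the 4 long-term panels, and Sirt5 lies left of 0 against Serum/LIF and right of 0 against 2i/LIF.

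Between P10 and P20 each medium had 1 sirtuin that was called. Sirt7 missed the threshold in each, at −0.35 in EMM, 0.41 in Serum/LIF and −0.39 in 2i/LIF (adjusted p = 0.0327, 0.0389 and 0.0157). In EMM the member called was Sirt1, which fell by 0.77 on the log2 scale (SE 0.07, adjusted p = 2.32e-07), with 25.3% of all genes called. Of the 10 pluripotent cell markers, 0 rose and 6 fell in this comparison (median −0.49). In 2i/LIF it was Sirt2, which went from 432, 524 and 412 to 200, 272 and 282 normalized counts and fell by 0.83 (SE 0.13, adjusted p = 4.72e-05), with 28.3% of all genes called. Without P20 2i/LIF replicate 1, which held the 200, Sirt2 fell by 0.72 (adjusted p = 0.00015), and Sirt7, whose highest P20 2i/LIF value of 371 was of the same library, was called as well, at −0.53 (0.00184). In Serum/LIF it was Sirt6, which rose by 0.49 ± 0.11 (adjusted p = 0.00686), with 6.01% of all genes called, a call lost without P10 Serum/LIF replicate 2 or 3 or P20 Serum/LIF replicate 1 or 2 (0.029 to 0.0366) or with no filter (0.013).

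The difference between the 2 passages in the effect of a medium was tested as an interaction. For EMM against Serum/LIF, 3 members had a smaller difference at P20 than at P10 and 0 a larger one, with 14.7% of all genes called: Sirt1 (−0.84 ± 0.10, adjusted p = 6.38e-06), Sirt7 (−0.75 ± 0.18, 0.00424) and Sirt6 (−0.70 ± 0.15, 0.00264). The Sirt6 call was lost without P10 EMM replicate 1 or P20 EMM replicate 3 (0.0104 and 0.0102), and the Sirt7 call without P10 EMM replicate 3, P10 Serum/LIF replicate 3, P20 EMM replicate 2 or P20 Serum/LIF replicate 1 (0.0114 to 0.0155), and both were lost with no filter (0.0114 and 0.014). The pluripotent cell markers moved the same way in this interaction, with 0 of 10 called higher and 8 lower (median −0.74, all genes −0.01), and their part in the sirtuin values was not tested. For EMM against 2i/LIF, Sirt1 (−0.90 ± 0.10, adjusted p = 1.84e-06) and Sirt2 (1.01 ± 0.17, 0.000163) were called, with a background of 32.3%, and of the pluripotent cell markers 1 was higher and 6 lower (median −0.81). Sirt2 was below the 2i/LIF libraries at P10 and above them at P20. For 2i/LIF against Serum/LIF, Sirt7 (−0.80 ± 0.18, adjusted p = 0.00235) and Sirt2 (−0.74 ± 0.18, 0.00383) were called, with a background of 20.0%, and the Sirt2 call was lost without P10 2i/LIF replicate 2, P10 Serum/LIF replicate 3 or P20 Serum/LIF replicate 2 (0.011 to 0.0155) or with only the groups compared (0.0121).

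The members lie on 5 chromosomes, and their changes were set beside those of their surroundings. Sirt1 spans chr10:63319005-63381704 in GENCODE M21, which includes a start upstream of the RefSeq one, and overlaps the antisense gene Gm16145, which did not pass the filter. The 10 tested genes nearest to it, 5 on each side, had log2 fold changes whose median was −0.16 at 24 h of EMM (range −0.75 to 0.92), 0.10 at P10 (−0.51 to 1.79) and −0.38 at P20 (−1.47 to 0.40), against 0.88, 1.94 and 1.10 for Sirt1. Reep3 had the value of 0.92 at 24 h. Herc4, which lies on the opposite strand past the downstream end of Sirt1, was called in all 3, at −0.37, 0.24 and −0.39. The median of chromosome 10 was 0.01, 0.03 and 0.02 in these comparisons. For Sirt7, the overlapping gene Mafg on the same strand rose too in the time course, at 0.60, 0.59 and 0.48, and the 2 genes were called in the same direction in 2i/LIF against Serum/LIF too, with Mafg at 0.72 and 0.32 and Sirt7 at 1.21 and 0.42 at P10 and P20, and in its interaction (−0.40 and −0.80). From P10 to P20 in 2i/LIF Mafg was at −0.52 and Sirt7 at −0.39. Reads shared by the 2 genes cannot be told apart in any of these. In EMM against Serum/LIF they parted, with Mafg at 0.19 and Sirt7 at 0.82 at P10 and 0.76 and 0.07 at P20. In its interaction Mafg was at 0.58 and Sirt7 at −0.75, both called. For EMM against 2i/LIF they were at −0.53 and −0.39 at P10 and 0.45 and −0.35 at P20, with Sirt7 called in neither.

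Sirt3 overlaps Ric8a and Psmd13, both on the opposite strand. Psmd13, a proteasome subunit, was at −0.27 at 24 h (adjusted p = 0.000116) and Ric8a at −0.05, with Sirt3 at 0.02. For 2i/LIF against Serum/LIF at P10, Ric8a was at 0.36 and Psmd13 at −0.65, with Sirt3 at 0.37, and at P20 they were at 0.84 and 0.31, with Sirt3 at −0.09. The strand setting of the counting is not given in the sources used here, so overlapping reads may be shared.

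The genes whose profiles were most like that of Sirt1 were named by Pearson's r of log2 CPM, counts scaled to library size. Over the 12 time-course libraries, among 12193 genes, they were Ankrd33b (0.996), Pou4f2 (0.995), Cnn3 (0.992), Fam107b (0.992) and Kbtbd11 (0.991). Over the 18 passage libraries, among 11532 genes, they were Kdm2b (0.979), Pmel (0.97), Abcb1a (0.969), Fastkd2 (0.966) and Syk (0.96), so the 2 sets of 5 had 0 genes in common. These libraries share groups and depth, and r describes them alone. For the other members the nearest genes were, in the time course and in the passages, Tsc22d1 (0.988) and Armc9 (0.963) for Sirt2, Tapbp (0.892) and Gm37206 (0.875) for Sirt3, Zfp579 (0.959) and Slc4a5 (0.962) for Sirt4, Arhgap27 (0.97) and Tinagl1 (0.956) for Sirt5, Gm40849 (0.95) and Esrrb (0.921) for Sirt6, and Dolk (0.961) and P3h1 (0.933) for Sirt7. Sirt3, which moved least, had the weakest likeness in both experiments.

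Genes of NAD+ synthesis and transport were described from a fixed list of 21, of which 14 were tested. The list also holds Nadk and Nadk2, kinases that use NAD+ to make NADP+, so its counts do not measure NAD+ supply. Nadk was the 1 gene called higher at 3 h (0.16 on the log2 scale) and was called at 9 h too (0.15). Nadk2 fell at 3 h (−0.30) and rose at 24 h (0.19) and P10 (0.62). The shares of all genes called were 34.5% at 3 h, 38.2% at 9 h, 44.0% at 24 h, 37.4% at P10 and 26.0% at P20. Against Serum/LIF, 1 rose and 4 fell at 3 h (list median −0.18 on the log2 scale, all genes −0.01), 4 rose and 2 fell at 9 h (0.07), 3 rose and 2 fell at 24 h (0.06 against 0.00), 3 rose and 1 fell at P10 (0.08 against 0.01) and 2 rose and 1 fell at P20 (0.12 against 0.00). Nampt, which makes NMN from the nicotinamide that sirtuins release, held 7517 ± 511 normalized counts in Serum/LIF and 7928 ± 413 at 24 h (SD, n = 3). It rose by 0.27 at 9 h, was at 0.14 at P10 and rose by 0.81 at P20, from 3230 ± 240 to 5681 ± 214. Qprt, the entry from quinolinate, fell by 1.21 at 24 h and by 1.00 at P20, and Nmnat2, which completes NAD+ in the cytoplasm, fell by 0.25 at 3 h (adjusted p = 0.00157), rose by 0.35 at 24 h and was at −0.27 and −0.19 at P10 and P20, where it was not called. Naprt, the entry from nicotinic acid, fell by 0.35 at 24 h and rose by 1.04 at P10. Kynu, of the kynurenine route, fell by 3.22 at P10 from a low level, 9.06 ± 4.17 against 1.03 ± 1.16 normalized counts, and was at 1.39 at P20 (adjusted p = 0.0753).

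Among 18 other NAD+ consumers, 5 rose and 6 fell at 24 h (median −0.04, background 44.0%), 2 and 6 at P10 (−0.01, background 37.4%), and 3 and 2 at P20 (−0.01, background 26.0%). At 3 h 3 rose and 4 fell (−0.07, background 34.5%), and at 9 h 2 rose and 7 fell (−0.07, background 38.2%). Tiparp, a mono-ADP-ribosyltransferase, rose by 0.66 at 24 h, 1.39 at P10 and 1.24 at P20, and Cd38, an NAD+ glycohydrolase, rose by 0.87 at 24 h and 2.56 at P10 and was at 0.05 at P20 (adjusted p = 0.882). Parp14 fell by 0.92 at 24 h and by 1.19 at P20 and was at 0.00 at P10 (0.996), and Parp8 fell by 3.47 at P10. Parp1, the main nuclear poly-ADP-ribose polymerase, was called at 24 h at −0.12, and was at 0.09 at P10 and 0.03 at P20.

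Of 14 regulators of Sirt1, 3 rose and 5 fell at 24 h (median −0.14, background 44.0%), 1 rose and 2 fell at P10 (0.09, background 37.4%), and 3 rose and 1 fell at P20 (−0.01, background 26.0%). At 3 h 3 rose and 6 fell (−0.15, background 34.5%), and at 9 h 4 rose and 7 fell (−0.16, background 38.2%). Hic1, a repressor known to act on Sirt1, fell by 1.70 at 24 h, from 24.4 ± 1.98 to 7.41 ± 2.03 normalized counts, and by 2.06 at P20, and its level was low throughout. Its partner Ctbp1 rose by 0.37 at 24 h and 0.53 at P20. Ccar2, the SIRT1 inhibitor also known as DBC1, was at −0.04, 0.13 and −0.22 at 24 h, P10 and P20, none of them called, and fell by 0.22 at 3 h. The AMPK subunit Prkaa1 rose by 0.31 at P10, where the other catalytic subunit Prkaa2 fell by 1.08.

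The enzymes that set lysine acetylation beside the sirtuins moved both ways. Of 11 zinc-dependent deacetylases, 3 rose and 3 fell at 24 h (median −0.07, background 44.0%), 3 and 4 at P10 (0.00, background 37.4%), and 0 and 2 at P20 (0.06, background 26.0%). At 3 h 2 rose and 2 fell (−0.09, background 34.5%), and at 9 h 1 rose and 5 fell (−0.14, background 38.2%). Hdac10 rose by 0.62 and Hdac11 fell by 0.53 at 24 h, Hdac2 rose by 0.77 at P10, and Hdac7 rose by 0.39 at 24 h and fell by 1.17 at P10 and by 2.04 at P20. Beside the same shares of all genes, of 10 acetyltransferases 6 rose and 2 fell at 24 h (median 0.28), 5 rose and 0 fell at P10 (0.31), and 3 rose and 1 fell at P20 (0.18). Earlier, 3 rose and 2 fell both at 3 h (0.11) and at 9 h (0.16). Kat2b, also called PCAF, rose by 0.48 at 24 h and by 1.12 at P10, Crebbp rose by 0.84 at P20, and Hat1 fell by 0.33 at 24 h and by 0.47 at P20.

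Of 15 tested genes for proteins known as sirtuin substrates, 7 rose and 2 fell at 24 h (median 0.13, background 44.0%), 9 rose and 1 fell at P10 (0.50, all genes 0.01, background 37.4%), and 6 rose and 0 fell at P20 (0.21, background 26.0%). Earlier in the day the split was nearer even, with 5 higher and 4 lower at 3 h (0.01, background 34.5%). At 9 h 7 were higher and 6 lower (0.14, background 38.2%). The rises included mitochondrial enzymes known as SIRT3 targets, while Sirt3 itself was not called in any of these comparisons. Idh2, the mitochondrial NADP+ isocitrate dehydrogenase, went from 3216 ± 89.7 to 8037 ± 105 normalized counts over 24 h, a rise of 1.32 on the log2 scale. Acss1, the mitochondrial acetyl-CoA synthetase, rose by 2.61 at P10 and by 2.63 at P20. Acly, the cytosolic source of acetyl-CoA, fell by 0.37 at P10. Sox2, whose product is deacetylated by SIRT1, fell by 0.20 at 24 h, rose by 0.50 at P10 and was at 0.06 at P20 (not called).

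**Figure D5:**
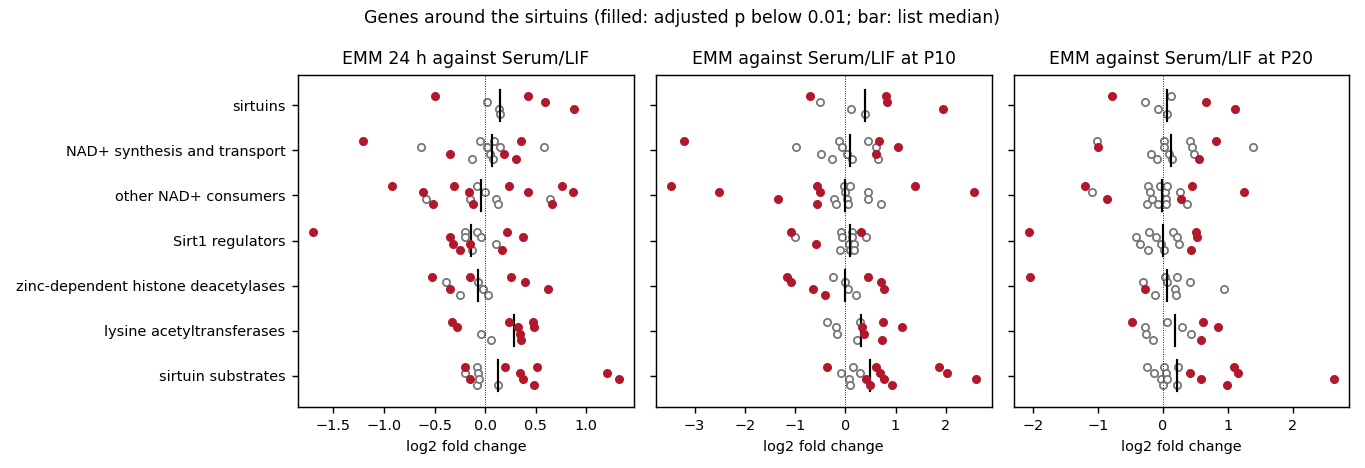
Log2 fold change (x) of single genes (points) in the sirtuin family and in 6 lists of related genes (y) for EMM against Serum/LIF at 24 h, P10 and P20, with filled points for adjusted p below 0.01 and a bar for each list's median. Most list medians lie near 0, and those of the acetyltransferases (0.28, 0.31 and 0.18) and substrates (0.13, 0.50 and 0.21) lie to its right in all 3 comparisons. So do those of the sirtuins (0.15, 0.40 and 0.07) and of NAD+ synthesis and transport (0.06, 0.08 and 0.12).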

How the data were processed

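RNA-seq of rRNA-depleted RNA of E14tg2a ESCs gave 2 tables. Per the submitters' notes the authors mapped reads to mm10 with STAR. The deposited time-course table holds raw counts per gene (featureCounts), and the deposited passage table holds estimated counts (Salmon), which were rounded here (9.982% of values were not whole). The study's methods name HTSeq instead. Symbols, exon lengths and positions came from GENCODE M21 (GRCm38), and promoters from RefSeq (GRCm38.p6), where all 7 genes matched. Genes were kept by filterByExpr (16049 and 16054 genes). edgeR 4.0.16 (R 4.3.3) with TMM scaling and a quasi-likelihood fit over all groups of a table gave log2 fold changes, SE and 2-sided p-values, Benjamini-Hochberg adjusted over all genes tested, and called at 0.01. Normalized counts are counts scaled to a table's mean effective library size. Scripts were tested on simulated data.

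Members, lists and tests were chosen with earlier results of these data known. Named list genes are those called with the largest rise and fall at 24 h, P10 and P20, plus Nampt, Parp1 and Ccar2. Nadk and Nadk2 are named as well because they use NAD+. For likeness they are the 5 genes of highest r to Sirt1 and the 1 of highest r to each other member, among genes with a mean of at least 50 normalized counts. Levels of Sirt1 to Sirt7 are given in all comparisons. Alternatives were DESeq2 1.42.0, other scaling, filters, thresholds, blocks and left-out libraries. No 2 libraries of a group agreed within sampling noise (chi-square per degree of freedom 2.0 to 52.2 in 30 pairs).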

Additional observations from a re-analysis of the deposited data

Results flagged for a closer look

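Each of the 7 sirtuins was tested with edgeR for a change between P10 and P20 in 3 differences between media, and 7 of these interactions, in 4 sirtuins, were called. The difference of the log2 fold changes (P20 minus P10) of EMM against Serum/LIF was −0.84 for Sirt1, −0.70 for Sirt6 and −0.75 for Sirt7, with 14.7% of all genes called, and the Sirt6 and Sirt7 calls were each lost with some single libraries left out (2 and 4 of 12). For EMM against 2i/LIF it was −0.90 for Sirt1 and 1.01 for Sirt2 (32.3% of all genes called). For 2i/LIF against Serum/LIF it was −0.74 for Sirt2 and −0.80 for Sirt7 (20.0%), and the Sirt2 call was lost with 3 of 12 libraries left out in turn. The sirtuin values of single libraries were not tested against the rest of their group, since all groups had 3.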

How the results depend on the processing

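Sample titles and sample descriptions number the EMM libraries of the time course differently. By title, deviations of same-numbered libraries of different groups from their group means had r over 0.1 in 5 of 18 pairs (median 0.00674). By description it was 5 of 15 (median 0.0231), and in the passages, by title, 3 of 45 (median 0.00334). Libraries with different numbers had medians of 0.00353, −0.00388 and −0.00342. With 3 libraries in a group, these values cannot show whether libraries shared an experiment. With the replicate block, counts of called sirtuins were 3, 4 and 4 at 3, 9 and 24 h, and no call of a sirtuin changed. No called sirtuin changed direction under any alternative. The 55 reversals came from 17 differences that were not called, each at most 0.0747 in size on the log2 scale with all libraries. Scaling by library totals alone moved the median of all genes by −0.11 for 2i/LIF against Serum/LIF at P20, by −0.10 and −0.09 for EMM against Serum/LIF at P10 and P20, by −0.07 at 3 h, and by 0.08 at most in size in the other comparisons. With it, the count at 3 h stayed at 3 but its split went from 3 higher and 0 lower to 1 and 2.

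At an adjusted p under 0.05 the counts were 5 at 3 h, 4 from 3 to 9 h, 5 for EMM against 2i/LIF at P10, 5 for 2i/LIF against Serum/LIF at P20, 2 for P20 against P10 in each medium and 5 for the interaction of 2i/LIF against Serum/LIF. With a log2 fold change above 1 as well, they were 0 in all 5 time-course comparisons, 1 and 1 for EMM against Serum/LIF, 2 for EMM against 2i/LIF at P20, 3 and 1 for 2i/LIF against Serum/LIF, 0 for P20 against P10 in each medium, and 0, 1 and 0 for the interactions of EMM against Serum/LIF, EMM against 2i/LIF and 2i/LIF against Serum/LIF. For 2i/LIF against Serum/LIF at P20 the count of 3 became 1 with DESeq2-type size factors, library totals, no filter, at least 10 counts in every library or only the groups compared. Without the filter it became 0 for P20 against P10 in Serum/LIF and 1 for the interaction of EMM against Serum/LIF, and with only the groups compared 1 for the interaction of 2i/LIF against Serum/LIF. The cause was not tested.

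Leaving out 1 library at a time gave counts of 1 to 3 from 3 to 9 h, 1 to 3 for 2i/LIF against Serum/LIF at P20, 0 to 1 and 1 to 2 for P20 against P10 in Serum/LIF and 2i/LIF, and 1 to 2 for the interaction of 2i/LIF against Serum/LIF. It gave log2 differences of −0.097 to 0.031, −0.105 to 0.036 and −0.010 to 0.118 for Sirt3 at 3, 9 and 24 h, −0.048 to 0.032 from 3 to 9 h, and −0.014 to 0.057 for EMM against 2i/LIF at P20. It gave −0.064 to 0.054 and −0.047 to 0.056 for Sirt4 and Sirt6 at 9 h, −0.071 to 0.067 for Sirt7 from 9 to 24 h, −0.032 to 0.119 for Sirt6 in EMM against 2i/LIF at P10, −0.088 to 0.057 for Sirt6 from P10 to P20 in 2i/LIF, −0.076 to 0.193 for Sirt5 from P10 to P20 in EMM, and −0.063 to 0.131 for Sirt2 in 2i/LIF against Serum/LIF at P20. For interactions it gave −0.212 to 0.140 for Sirt5 (2i/LIF against Serum/LIF), −0.029 to 0.166 for Sirt7 (EMM against 2i/LIF) and −0.235 to 0.041 for Sirt4 (EMM against Serum/LIF).

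Reversed single values were, for Sirt6 at 9 h, 0.004 (DESeq2-type size factors), 0.024 (no filter), 0.0039 (DESeq2) and 0.012 (only the groups compared), for Sirt3 from 3 to 9 h 0.039 (library totals) and 0.0067 (only the groups compared), for Sirt4 at 9 h 0.0067 (no filter) and 0.015 (block by description number), for Sirt3 at 3 and 9 h 0.036 and 0.032 (the same block), and for Sirt7 from 9 to 24 h 0.0097 (library totals). For Sirt2 in 2i/LIF against Serum/LIF at P20 they were −0.0025 (DESeq2-type size factors), −0.101 (library totals), −0.063 (10 counts in every library) and −0.0066 (only the groups compared). Library totals gave −0.022 for Sirt7 in EMM against Serum/LIF at P20, −0.017 for Sirt6 in EMM against 2i/LIF at P10 and −0.023 for the Sirt1 interaction of 2i/LIF against Serum/LIF, and no filter gave 0.0056 for Sirt6 from P10 to P20 in 2i/LIF and 0.0011 for the Sirt4 interaction of EMM against Serum/LIF. Depth limits Sirt4 and Sirt5 most, with as few as 16 counts of Sirt5 in a passage library.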
